A study of Mus musculus with 60 samples.

Results

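A group of 5 mice in the series gave 2 carcinomas each, and these 10 arrays, of 60 arrays from 55 mice in all, show how far tumours that arose in 1 animal differed from each other. The mice were found by the mouse identifier that 2 array titles share, and the remaining 50 mice had 1 carcinoma each. All animals were FVBBX mice, the offspring of a backcross of SPRET/Ei (Mus spretus) by FVB/N hybrids to FVB/N, so that each mouse carries its own mixture of alleles and its 2 tumours should carry the same one. All carcinomas were induced on the back skin with dimethyl benzanthracene (DMBA), a mutagen, and tetradecanoyl-phorbol acetate (TPA), a tumour promoter. The 2 tumours of a mouse are called carcinoma a and carcinoma b here, in the order of the number in the title.

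The origin label of the cross was F1BSF4 for mouse 1, mouse 2 and mouse 4, F1BSF3 for mouse 3 and F1BSF1 for mouse 5. Mouse 1 was a white male with well differentiated squamous cell carcinomas (SCC) and a positive lymph node. It had 7 papillomas at 20 weeks and 18 at 24 weeks. Mouse 2 was an agouti female with well differentiated SCC and a negative node, and had 10 and then 14 papillomas. Mouse 3 was an agouti male with poorly differentiated spindle carcinomas, a positive node and 6 and then 3 papillomas, and was the 1 mouse of the 5 whose p53 label was mutant. Mouse 4 was an agouti female with moderately differentiated SCC, a negative node and no papilloma at either time. Mouse 5 was an agouti male with 14 and then 29 papillomas, and neither its histology nor its node status was given. Histology, node status and p53 were labelled alike for both tumours of a mouse. The label tumor_class, whose meaning the labels do not give, was 1 for both tumours of mouse 1 and 2 for both tumours of mouse 2. In mouse 3, mouse 4 and mouse 5, carcinoma a was class 1 and carcinoma b was class 2. In the titles of mouse 1 and mouse 5 the pair also shares 1 tumour number, and the labels do not say whether these are separate tumours or pieces of 1 tumour.

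Squamous cell carcinomas keep features of the epidermis: basal keratinocytes are bound by desmosomes and tight junctions, and cells that differentiate build a cornified envelope. Spindle carcinomas have lost much of this program and express mesenchymal genes. Both hold fibroblasts, blood vessels, immune cells and pieces of the skin and muscle around them, and all of these contribute RNA to a bulk array. In such a sample, fewer cells of a type and less RNA per cell cannot be told apart.

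Values are log2 expression levels per gene, from 1 array per carcinoma, and a difference of 1 is 2-fold. Comparisons covered the genes above the array median on at least 8 of the 60 arrays, and array medians of the whole series lay between 4.43 and 4.56. The spread available is the one between the 2 arrays of a mouse, and the number of arrays limits the precision. The labels do not say whether the arrays of mouse 1 and mouse 5, which share a tumour number, measured 1 tumour again. RNA quality, read as the 3′ minus 5′ difference of the Actb control, differed within mouse 3 (0.65 in carcinoma a and 1.87 in carcinoma b) more than within any other pair, and its part in the results below was not tested.

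The arrays of mouse 3 differed from each other in sex markers. In germline-linked genes the pairs of mouse 3 and mouse 4 were less alike than those of mouse 1, mouse 2 and mouse 5. Xist, the RNA of the inactive X chromosome, and the Y-linked genes gave the sex. Mouse 3, labelled male, had Xist at 10.56 with a Y-linked mean of 5.92 in carcinoma a, and 5.49 with 3.53 in carcinoma b. On the 50 other arrays the medians were 11.5 and 2.70 for the 30 labelled female, and 5.60 and 6.37 for the 20 labelled male, so that carcinoma a carried both signals and carcinoma b had a low level of both. The other 4 pairs were each alike in sex and fitted their label. Mouse 1 had Xist at 5.55 and 5.87, mouse 5 at 4.70 and 5.81, mouse 2 at 10.30 and 10.90, and mouse 4 at 11.30 and 10.89.

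A second check used 768 genes whose level the study had linked to germline genotype in these carcinomas. These genes were chosen on data that include the 10 arrays, so they describe the pairs and are not independent evidence of likeness. After centring each gene on its mean over 60 arrays, the 2 carcinomas of a mouse correlated with r = 0.73 in mouse 2, 0.52 in mouse 1, 0.41 in mouse 5, 0.098 in mouse 3 and 0.020 in mouse 4, over 768 genes. Among 1765 array pairs from different mice the median was -0.03 and the 99th percentile 0.40. Mouse 2, mouse 1 and mouse 5 lay above that percentile, though 16 different-mouse pairs were more alike than the pair of mouse 5. By contrast, 391 and 650 different-mouse pairs were more alike than the pairs of mouse 3 and mouse 4. Carcinoma a of mouse 4 had its highest correlation, 0.83, with the single SCC of another female kept in the same cage, and that value was the highest of all different-mouse pairs. It was also above the value of each of the 5 same-mouse pairs. Carcinoma a of mouse 1 (0.58) and carcinoma b of mouse 5 (0.43) likewise had their highest correlation with an array of another mouse. Whether the low likeness of the pairs of mouse 3 and mouse 4 came with the difference in tumor_class was not tested. The counts of both limma tests are therefore given with and without mouse 3 and mouse 4.

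**Figure D1:**
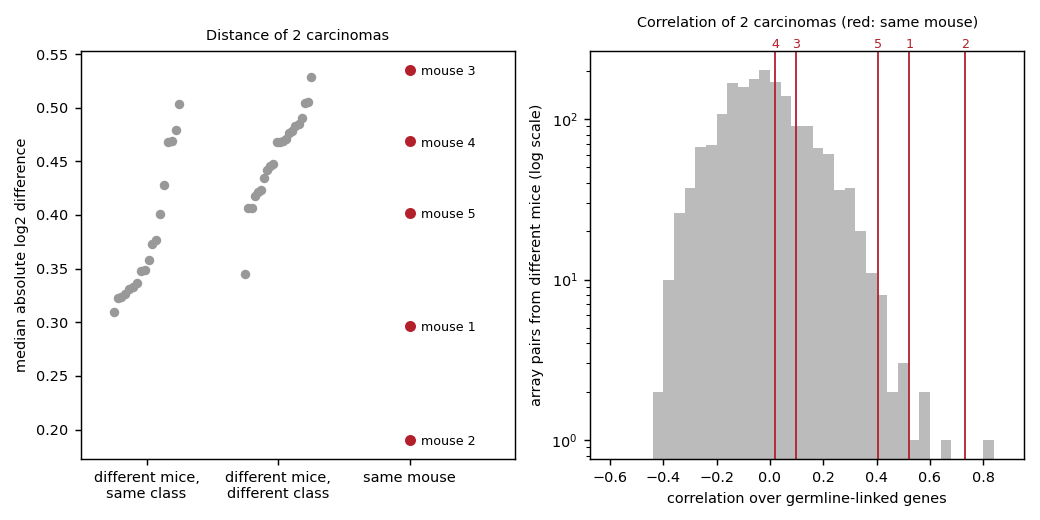
Left, the distance between 2 carcinomas (median absolute log2 difference over genes) for the 40 array pairs from different mice, split by whether the tumor_class label was the same, and for the 5 same-mouse pairs in red. Right, the correlation over the germline-linked genes for 1765 array pairs from different mice (grey bars, log count axis) with the 5 same-mouse pairs as red lines numbered by mouse. Mouse 2 and mouse 1 sit below every different-mouse pair in distance, at 0.190 and 0.297. In the correlations, 391 and 650 different-mouse pairs lie above mouse 3 and mouse 4, at 0.098 and 0.020.

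The first comparison asked whether tumours of 1 host resembled each other more than tumours of different hosts. The distance between 2 arrays was the median over genes of the absolute log2 difference. It was 0.190 in mouse 2, 0.297 in mouse 1, 0.402 in mouse 5, 0.469 in mouse 4 and 0.535 in mouse 3. The 40 pairings of arrays from different mice ranged from 0.310 to 0.529 with a median of 0.431, so that mouse 2 and mouse 1 lay below all of them and mouse 3 above all. The mean over the 5 true pairs was 0.379, against a median of 0.420 over all ways to sort the 10 arrays into pairs, and the difference did not pass an exact permutation test (one-sided p = 0.111). Without mouse 3 and mouse 4 the p was 0.0667 (exact permutation test, one-sided), the smallest that 3 mice allow. Without mouse 2 the true pairs were farther apart than the median pairing (0.426 against 0.411, one-sided exact permutation p = 0.752), so the direction rests on that mouse.

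Tumours with the same class label in different mice were at a median distance of 0.354 (18 pairs), and tumours with different labels at 0.468 (22 pairs). Ordered by nearness to carcinoma a of mouse 3, carcinoma b of the same mouse had rank 58 among the 59 other arrays. In mouse 2 each carcinoma was the nearest array to the other among 59, and in mouse 1 the nearest array to carcinoma b was carcinoma a. The share of genes at least 2-fold apart within a pair was 2.45% in mouse 2 and 8.69% in mouse 1, the mice with 1 class. It was 17.6% in mouse 5, 20.0% in mouse 4 and 25.6% in mouse 3, the mice with both classes. At the other end, 261 genes (2.04%) differed by at most 0.25 in all 5 pairs. In mouse 3, mouse 4 and mouse 5 together, 447 genes (3.49%) were at least 2-fold higher in carcinoma b in all 3 mice, and 221 genes (1.73%) were at least 2-fold lower.

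Many of the genes that differed most within pairs belong to the keratinocyte lists (epithelial adhesion, basal keratinocyte, cornified envelope and stress keratin). Over all genes the median within-pair SD was 0.37. It was 3.77 for Serpinb11, a serpin of keratinised epithelia and the gene of highest within-pair SD, and above 3 for Ehf, Sprr1a, Fxyd3, Krt6a, Cldn4, Dsp, Aldh1a3 and Lypd3. Of 208 genes with a within-pair SD of at least 2, 45 belong to these lists, which hold 87 of the genes tested. Of the 208, 135 were higher in class 2 by the test described below and 14 were lower, against 4.9% and 3.92% of all genes. The SD and that test rest on the same within-pair differences, so these counts add no support.

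Serpinb11 lay at 4.84 and 6.94 in carcinomas a and b of mouse 1, 11.43 and 10.80 in mouse 2, 3.44 and 11.51 in mouse 3, 4.69 and 10.36 in mouse 4, and 3.55 and 9.86 in mouse 5. Cldn4, a claudin of tight junctions, lay at 4.21 and 6.84, 9.75 and 9.49, 4.52 and 10.54, 5.01 and 11.29, and 4.58 and 10.61 in the same order. In both genes each of the 5 carcinomas of class 2 lay above each of the 5 of class 1. Dsp, desmoplakin of the desmosome, was at 9.75 and 11.13, 11.99 and 11.94, 2.52 and 12.20, 9.16 and 12.19, and 9.10 and 12.28. Its lowest value by far was carcinoma a of mouse 3, the mouse labelled spindle, and the 2 classes again did not overlap.

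**Figure D2:**
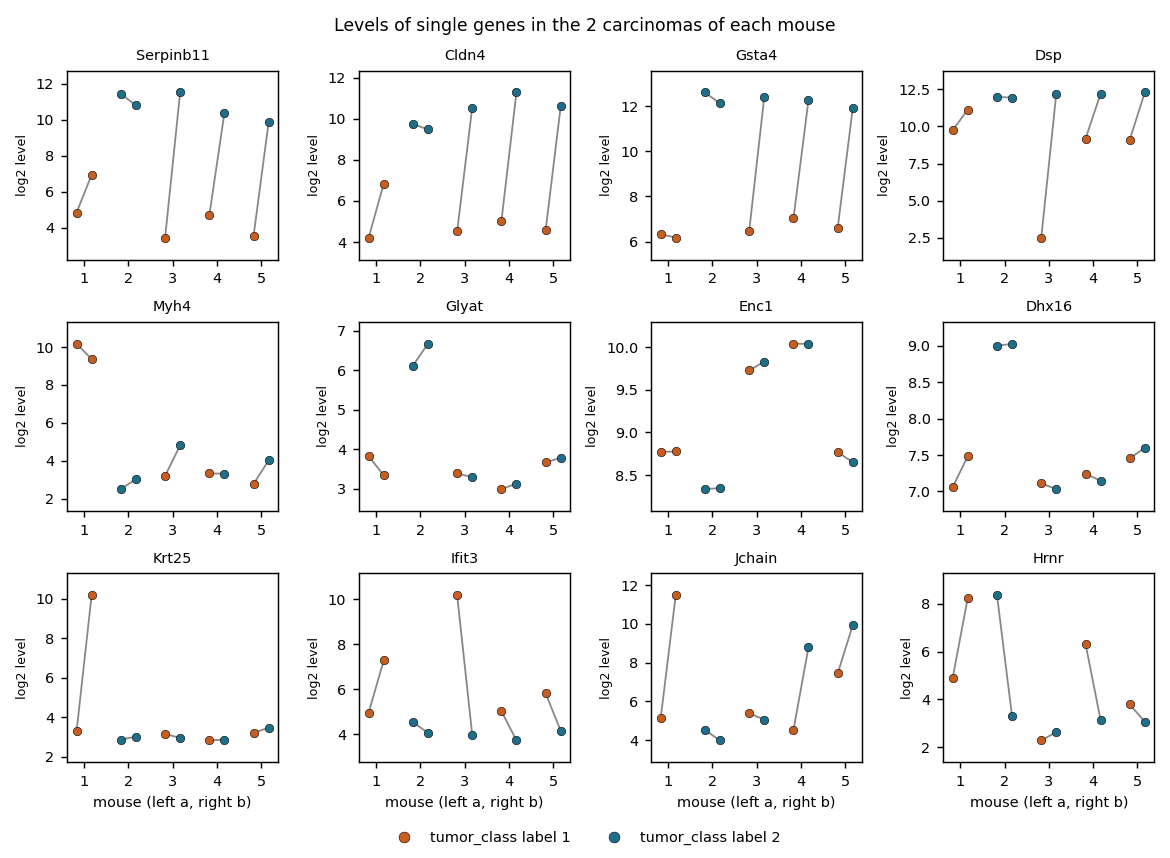
Log2 level of 12 genes in carcinoma a (left point) and carcinoma b (right point) of each mouse, joined by a line and coloured by the tumor_class label. The top row holds genes that differed within mouse 3, mouse 4 and mouse 5, such as Serpinb11 and Cldn4. The middle row holds genes alike within most pairs, and the bottom row holds genes that differed mainly within 1 or 2 mice, such as Krt25, at 3.30 and 10.19 in mouse 1.

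The second comparison set class 2 against class 1 within mice, with mouse as a block, and asked which genes followed that label when the host was held fixed. Of all genes tested, 1128 (8.82%) passed an adjusted p of 0.05 in limma: 627 (4.9%) were higher in class 2 and 501 (3.92%) lower. All 1128 moved in 1 direction in mouse 3, mouse 4 and mouse 5. This adds no support, since the test favours genes whose differences in these 3 mice agree. Without mouse 3 and mouse 4 the difference is that of 1 array against 1 array in mouse 5, set against the spread within mouse 1 and mouse 2. It then speaks for that mouse only, and 458 genes passed (273 higher, 2.13%, and 185 lower, 1.45%), 297 of them among the 1128. With only the 3 mice of both classes, 348 passed (284 higher and 64 lower). The labels do not say whether the class was set from expression, so the test is not known to be independent of it.

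Gsta4, a glutathione transferase that detoxifies lipid peroxidation products, had the smallest p. It lay between 6.17 and 7.02 in the class 1 carcinomas and between 11.89 and 12.60 in those of class 2, a difference within mice of 5.49 (SE 0.23, limma adjusted p = 0.000447). Aldh1a3, which makes retinoic acid, differed by 6.12 (SE 0.28) and Dsc2, a desmosomal cadherin, by 6.03 (SE 0.29), both with a limma adjusted p of 0.000447. Lypd3, a membrane protein of differentiating keratinocytes, differed by 6.05 (SE 0.35), and Elf3, an epithelial transcription factor, by 3.78 (SE 0.22). Ehf, another factor of the same ETS family, differed by 6.44 (SE 0.45, limma adjusted p = 0.000712). All 6 genes still passed without mouse 3 and mouse 4, with differences in mouse 5 from 4.11 (Elf3) to 6.92 (Lypd3).

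Genes that bind epithelial cells together were higher in class 2 almost throughout. Over all genes 4.9% were higher and 3.92% lower in class 2, and without mouse 3 and mouse 4 the shares were 2.13% and 1.45%. Of 26 epithelial adhesion genes, 23 were higher in class 2 and none was lower, with a median difference of 3.79 against -0.05 over all genes. Of the 26, 10 passed without mouse 3 and mouse 4. The number at least 2-fold higher in carcinoma b was 25 of 26 in mouse 3, 25 in mouse 4 and 25 in mouse 5 (against 13.5%, 9.65% and 7.9% of all genes), and 12 in mouse 1 and 0 in mouse 2. Cdh1, E-cadherin, lay at 6.83 and 10.40 in mouse 3, 6.69 and 10.43 in mouse 4, and 7.65 and 10.04 in mouse 5. Of 12 basal keratinocyte genes, 8 were higher in class 2 and none was lower, and 3 passed without mouse 3 and mouse 4. Krt14, the keratin of basal cells, lay at 5.06 and 13.79 in mouse 3, 11.00 and 13.97 in mouse 4, and 10.33 and 13.72 in mouse 5. Trp63, the transcription factor that maintains stratified epithelia, was at 3.28 and 9.99, 5.60 and 10.03, and 7.21 and 10.16 in these mice. Krt14, Trp63 and Cdh1 were each lower in the class 1 carcinoma of all 3 mice, and Krt14 was far lower in carcinoma a of mouse 3 than in any other carcinoma.

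Stress keratins and other genes that the epidermis expresses in wounds and hyperplasia were also higher in class 2. The shares over all genes were 4.9% higher and 3.92% lower, and 2.13% and 1.45% without mouse 3 and mouse 4. Of 12 such genes 8 passed and none was lower, with a median difference of 4.83 (9 passed without mouse 3 and mouse 4). Krt16, a keratin of activated keratinocytes, was at 4.03 and 11.47 in mouse 3, 9.32 and 12.24 in mouse 4, and 7.57 and 12.38 in mouse 5. Of 37 cornified envelope genes only 13 were higher in class 2 and none was lower, with a median difference of 1.20 (11 passed without mouse 3 and mouse 4). Sprr1a, a small proline-rich protein of the envelope, was at 5.63 and 13.30 in mouse 3, 9.13 and 13.77 in mouse 4, and 7.27 and 13.68 in mouse 5. The envelope list was split in mouse 4, where 17 genes were at least 2-fold higher and 13 lower in carcinoma b (9.65% and 10.3% of all genes). It was less so in mouse 3 (18 and 0, against 13.5% and 12.1% of all genes) and mouse 5 (26 and 2, against 7.9% and 9.73%). Ivl, involucrin, rose by 3.07 (SE 0.47, limma adjusted p = 0.0108), while Lor, loricrin, had -0.96 (SE 0.94, limma adjusted p = 0.619). The difference of Ivl without mouse 3 and mouse 4 was 3.10, that of mouse 5, and did not pass (limma adjusted p = 0.152).

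Among the genes lower in class 2 were members of the mesenchymal and macrophage lists. Of all genes 3.92% were lower and 4.9% higher, and 1.45% and 2.13% without mouse 3 and mouse 4. Of 20 mesenchymal genes 9 were lower and 1 higher, with a median difference of -1.63, and of 15 macrophage genes 6 were lower and none higher, with a median of -1.76. Without mouse 3 and mouse 4, 6 mesenchymal genes and no macrophage gene were lower. The macrophage median was -2.82 in mouse 3 (14 of 15 at least 2-fold lower), -1.78 in mouse 4 (13 of 15) and -0.73 in mouse 5 (4 of 15). Of all genes 12.1%, 10.3% and 9.73% were at least 2-fold lower in these mice. S100a4, a calcium-binding protein of motile cells, was at 13.02 and 10.49 in mouse 3, 13.63 and 10.53 in mouse 4, and 13.84 and 10.22 in mouse 5. Its difference was -3.08 (SE 0.27, limma adjusted p = 0.00159), and mouse 1 (13.46 and 13.32) lay with the class 1 carcinomas and mouse 2 (10.34 and 10.92) with class 2. Zeb1, a repressor of E-cadherin, fell by 2.29 (SE 0.28, limma adjusted p = 0.00513), and Vim, vimentin of the mesenchymal cytoskeleton, fell by 2.02 (SE 0.31, limma adjusted p = 0.0109). Msr1, a scavenger receptor of macrophages, fell by 2.69 (SE 0.45, limma adjusted p = 0.0151). S100a4, Zeb1 and Vim still passed without mouse 3 and mouse 4, while Msr1 had -1.30 in mouse 5 (limma adjusted p = 0.214). The fibroblast matrix list did not follow: none of its 17 genes was called lower and 1 was higher (4 lower and none higher without mouse 3 and mouse 4), and its median was -0.51 in mouse 3, 0.72 in mouse 4 and -1.57 in mouse 5.

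**Figure D3:**
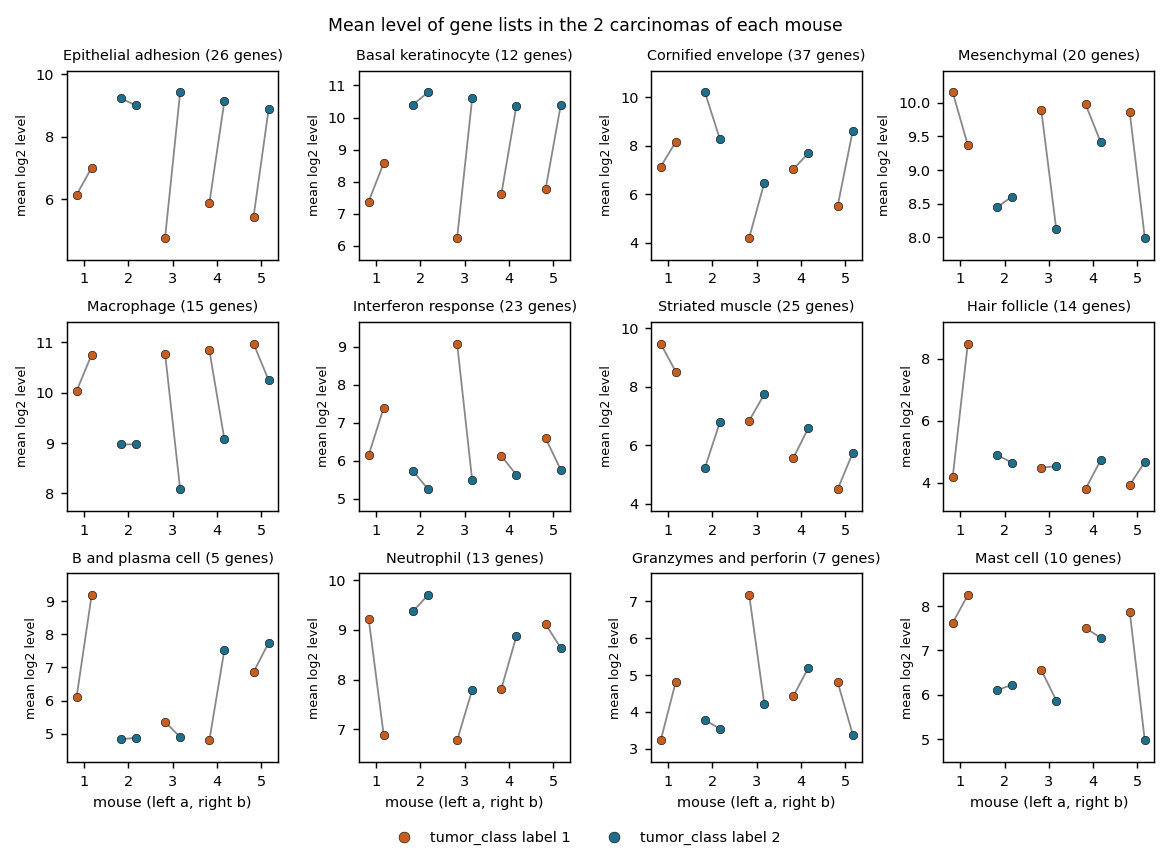
Mean log2 level of the genes of 12 lists in carcinoma a (left point) and carcinoma b (right point) of each mouse, joined by a line and coloured by the tumor_class label. Epithelial adhesion and basal keratinocyte genes are higher on each class 2 array than on each class 1 array, whereas hair follicle genes differ in mouse 1, from 4.20 to 8.49, interferon response genes most in mouse 3, from 9.07 to 5.49, and mast cell genes most in mouse 5, from 7.87 to 4.97.

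The promoters of genes higher in class 2 were searched for TGANTCA, a broad form of the AP-1 site of the Jun and Fos factors that TPA activates. Its middle base is free, so the counts also hold matches outside the TPA response element TGA(C/G)TCA. The window was the 250 bases before each RefSeq start (GRCm38.p6), read on both strands. The motif was found in 11.7% of 597 windows of genes higher in class 2, in 5.66% of 530 windows of genes lower in class 2, and in 5.22% of 13073 windows of all genes tested. With the calls made without mouse 3 and mouse 4, it was in 18.3% of 252 windows of higher genes and 5.73% of 192 windows of lower genes. A RefSeq window was found for 454 of the 627 higher genes. The site AACCGGTT, bound by grainyhead-like factors, was in 0 of 597 and 3 of 530 windows, against 26 of 13073 (0.199%) over all genes tested. These are counts of letters and say nothing about binding. The windows of 3 genes of the preceding paragraphs, chosen because each holds more than 1 match, follow with the matches to TGANTCA in capitals. Those of Serpinb11 lie outside the TPA response element. That of Cldn4 is chr5:134946935-134947184 on the minus strand, that of Serpinb11 is chr1:107362064-107362313 on the plus strand, and that of Sprr1a is chr3:92485882-92486131 on the minus strand.
Cldn4: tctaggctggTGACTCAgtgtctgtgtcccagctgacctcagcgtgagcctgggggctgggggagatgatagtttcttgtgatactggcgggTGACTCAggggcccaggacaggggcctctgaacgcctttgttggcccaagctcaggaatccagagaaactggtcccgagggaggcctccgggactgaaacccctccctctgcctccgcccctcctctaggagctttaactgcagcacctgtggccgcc
Serpinb11: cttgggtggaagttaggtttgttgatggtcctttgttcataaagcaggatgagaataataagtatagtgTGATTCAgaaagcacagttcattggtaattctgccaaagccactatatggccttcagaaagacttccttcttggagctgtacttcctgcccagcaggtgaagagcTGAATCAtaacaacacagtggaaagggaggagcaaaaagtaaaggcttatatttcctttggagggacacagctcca
Sprr1a: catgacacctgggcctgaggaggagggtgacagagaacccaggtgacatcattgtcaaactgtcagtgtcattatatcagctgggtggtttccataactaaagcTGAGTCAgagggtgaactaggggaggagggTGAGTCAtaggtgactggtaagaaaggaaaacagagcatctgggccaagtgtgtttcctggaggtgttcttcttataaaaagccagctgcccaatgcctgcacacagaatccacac

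Each pair also had large differences in other lists, some of which were shared with other pairs. The differences within single pairs rest on 1 array per tumour and are given as sizes with no test. In mouse 1, hair follicle genes were higher in carcinoma b: 13 of 14 by at least 2-fold (4.04% of all genes), with a median difference of 4.45. Krt25, a keratin of the inner root sheath, was at 3.30 and 10.19, and Krtap8-1, a keratin-associated protein of the hair shaft, at 3.48 and 11.50. On the other 8 arrays of the pairs Krt25 lay between 2.83 and 3.47, so carcinoma b of mouse 1 stood alone. Genes of B and plasma cells were also higher there. Jchain, which joins secreted immunoglobulin, was at 5.13 and 11.48 in mouse 1, 4.53 and 8.79 in mouse 4, and 7.44 and 9.93 in mouse 5, against 4.52 and 3.99 in mouse 2 and 5.38 and 5.06 in mouse 3.

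Neutrophil genes went the other way in mouse 1, where 12 of 13 were at least 2-fold lower in carcinoma b (4.65% of all genes). Mmp8, the neutrophil collagenase, was at 9.09 and 4.32, and Ngp, a granule protein, at 8.67 and 4.80. S100a8, an abundant neutrophil protein that keratinocytes also make, was at 13.37 and 11.47. In mouse 2 the same 3 genes differed by at most 0.70 within the pair.

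Mouse 2 had the closest pair, in which the cornified envelope list was the one with the most genes apart. Of the 37 genes of that list, 24 were at least 2-fold lower in carcinoma b (1.43% of all genes) and none was higher. Hrnr, hornerin of the cornified layer, was at 8.36 and 3.30, Krt1, a keratin of suprabasal cells, at 11.93 and 7.73, and Lce1c, a late envelope protein, at 8.44 and 4.31. Adhesion genes in the same pair differed little, with a median of -0.23. Striated muscle genes were higher in carcinoma b, 16 of 25 by at least 2-fold (1.02% of all genes). Ttn, titin of the sarcomere, was at 4.24 and 7.30 and Neb, nebulin, at 3.20 and 5.92.

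In mouse 3, genes of the interferon response were higher in carcinoma a, the tumour with both sex signals. Of 23 such genes, 22 were at least 2-fold lower in carcinoma b (12.1% of all genes), with a median of -3.68. Ifit3, an interferon-induced antiviral protein, was at 10.19 and 3.99 there, 4.96 and 7.29 in mouse 1, 4.55 and 4.06 in mouse 2, 5.04 and 3.73 in mouse 4, and 5.83 and 4.16 in mouse 5. Of the 23, 3 were called lower in class 2 (3.92% of all genes), including Ifit2 (-3.99, SE 0.72, limma adjusted p = 0.0185) and Rsad2 (-2.76, SE 0.62, limma adjusted p = 0.0394), both antiviral effectors. None of the 23 was called without mouse 3 and mouse 4. Granzymes, proteases of cytotoxic cells, were higher in the same tumour: 6 of 7 genes were at least 2-fold lower in carcinoma b, with Gzmd at 8.19 and 2.83 and Gzmg at 7.86 and 2.48. Mitosis genes were lower in carcinoma b of mouse 3 as well, 19 of 25 by at least 2-fold, with Top2a, the topoisomerase of dividing cells, at 10.36 and 8.28. In mouse 4 and mouse 5, 1 and 2 of the 25 were.

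In mouse 4, erythroid genes were higher in carcinoma a, with Alas2, the first enzyme of haem synthesis in red cells, at 10.33 and 5.74 and Slc4a1, the red cell anion exchanger, at 6.28 and 3.75. Alas2 lay between 4.28 and 7.47 on the other 8 arrays. Penk, which encodes opioid peptides, was at 11.04 and 5.41, and Syt13, a synaptotagmin, at 8.83 and 3.43, against at most 4.76 on the other 8 arrays. Mme, neprilysin, was at 8.73 and 2.77. Psca, a surface antigen of stratified epithelia, was at 4.32 and 11.74 and followed the class label (5.64, SE 0.61, limma adjusted p = 0.00341, and 0.0335 without mouse 3 and mouse 4).

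In mouse 5, mast cell genes were higher in carcinoma a: 9 of 10 were at least 2-fold lower in carcinoma b (9.73% of all genes), with a median of -2.98. The list median was also below 0 in mouse 3 (-1.04, 5 genes at least 2-fold lower and 2 higher) and mouse 4 (-0.49, 2 lower and 1 higher). Of the 10, 2 were called lower in class 2 and 0 higher (3.92% and 4.9% of all genes). Tpsab1, a mast cell tryptase, was at 9.29 and 4.44, and Cma1, the chymase, at 8.97 and 4.75. Over the other 8 arrays Tpsab1 ranged from 5.89 to 9.15, so the value of carcinoma b was the lowest of the 10. Fibroblast matrix genes were at least 2-fold lower in carcinoma b in 12 of 17. Il6, an inflammatory cytokine, was at 9.65 and 4.61, Tac1, the precursor of substance P, at 9.70 and 3.34, and Ntn1, netrin, at 9.21 and 3.39. Hypoxia and glycolysis genes were higher in carcinoma b, 11 of 21 by at least 2-fold (7.9% of all genes), with Egln3, an oxygen-sensing prolyl hydroxylase, at 8.25 and 12.26. In mouse 3 Egln3 was at 8.19 and 11.89, while in mouse 4 it was at 8.80 and 8.18.

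The third comparison asked which genes were alike within pairs yet varied between mice, with an F-test of mouse over the 10 arrays. Mouse 1 had only class 1 and mouse 2 only class 2, so a difference between these mice cannot be told apart from 1 of class. This holds with and without mouse 3 and mouse 4. No gene passed at an adjusted p of 0.05 in limma (0.0%), and 1310 (10.2%) had an unadjusted p under 0.05. Without mouse 3 and mouse 4, 2 genes passed (0.0156%), Eif2s3y and Tex19.1, and 2628 (20.5%) had an unadjusted p under 0.05. The within-pair SD had a median of 0.37 and the SD of the 5 mouse means a median of 0.31, a ratio above the 0.71 that the same spread with no difference between mice would give. The SD of mouse means was the larger of the pair in 4282 genes (33.5%).

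The smallest p without mouse 3 and mouse 4 was that of a Y-linked gene. Eif2s3y, a Y-linked translation factor, was at 7.48 and 7.85 in mouse 1, 2.47 and 2.38 in mouse 2, 6.69 and 3.70 in mouse 3, 2.68 and 2.59 in mouse 4, and 8.23 and 8.05 in mouse 5. Its limma adjusted p was 0.302 with all 5 mice and 0.0199 without mouse 3 and mouse 4. Tex19.1, a germ cell gene on chromosome 11, was at 3.78 and 3.57 in mouse 1, 8.38 and 8.43 in mouse 2, 7.96 and 10.08 in mouse 3, 9.69 and 7.74 in mouse 4, and 4.24 and 3.95 in mouse 5. Its limma adjusted p was 0.302 with all mice and 0.0217 without mouse 3 and mouse 4. The levels of Tex19.1 formed a low set, mouse 1 and mouse 5, and a high set of the other 3 mice, and these did not overlap.

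Glyat, which conjugates glycine to acids in the liver, had the smallest p (limma adjusted p = 0.208). It was at 6.12 and 6.67 in mouse 2 and between 2.99 and 3.83 in the other 8 carcinomas. Enc1, an actin-binding adaptor, was at 8.77 and 8.78, 8.33 and 8.35, 9.73 and 9.83, 10.04 and 10.04, and 8.77 and 8.65 in mice 1 to 5. In this probe set the within-pair SD was 0.05 against an SD of mouse means of 0.74. The pairs of mouse 3 and mouse 4 were as tight as the others in it. Another Enc1 probe set, above the array median on 60 arrays, differed by -0.37, 0.10, -0.28, 0.37 and 0.09 within mice 1 to 5. There the pairs of mouse 3 and mouse 4 were less tight than those of mouse 2 and mouse 5. An Enc1 probe set above the array median on only 11 of 60 arrays differed by -0.935 in mouse 3 and 0.099 in mouse 4. Dhx16, an RNA helicase of splicing, was at 9.00 and 9.03 in mouse 2 and between 7.03 and 7.60 elsewhere. Lrig3, a membrane protein that modulates growth factor receptors, was at 8.45 and 8.34 in mouse 3, 7.11 and 6.59 in mouse 4, and between 5.10 and 6.01 in the other mice. Ccl11, the eosinophil chemokine eotaxin, was at 8.39 and 10.11 in mouse 1 and 10.12 and 8.70 in mouse 5, and between 3.95 and 5.41 in the others. For each of these genes the high mice lay apart from the rest by more than the pairs differed, but none passed the adjusted threshold with all 5 mice.

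Apart from the sex-linked genes (4 of 4), striated muscle was the list with the largest share of genes at an unadjusted p under 0.05 with all 5 mice, and none of its genes passed the adjusted threshold. Of 25 muscle genes, 19 had an unadjusted p under 0.05 in the F-test, against 10.2% of all genes, and 21 did without mouse 3 and mouse 4, against 20.5%. Myh4, the myosin of fast fibres, was at 10.17 and 9.37 in mouse 1, 2.51 and 3.03 in mouse 2, 3.21 and 4.82 in mouse 3, 3.34 and 3.32 in mouse 4, and 2.78 and 4.03 in mouse 5. Myoz1, a protein of the muscle Z-disc, was at 8.73 and 8.50 in mouse 1 and between 5.26 and 6.87 elsewhere. Both carcinomas of mouse 1 were high in muscle genes and no other carcinoma reached them in these 2 genes. Ttn and Neb were less pair-bound, with mouse 2 itself split as described above. The list as a whole also differed within pairs, with a median within-pair SD of 0.98 against 0.37 over all genes. In mouse 1, 13 of its 25 genes were at least 2-fold lower in carcinoma b and 0 higher (4.65% and 4.04% of all genes). In mice 2 to 5, 16, 10, 17 and 12 were at least 2-fold higher (1.02%, 13.5%, 9.65% and 7.9% of all genes), and 0, 1, 2 and 1 lower.

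Keratins of simple and mucosal epithelia were next in share. Of 6 such genes 4 had an unadjusted p under 0.05, and 5 without mouse 3 and mouse 4, against 10.2% and 20.5% of all genes. The smallest p in the list were those of Krt4, Krt18 and Krt19, while Krt4, Krt7, Krt8 and Krt13 had the largest within-pair SD. Krt8, a keratin of simple epithelia, differed in another of its probe sets by 0.64, -0.80, 3.25, -0.46 and -2.24 within mice 1 to 5. Krt4, a keratin of the oesophagus and oral mucosa, was at 11.32 and 11.23 in mouse 2, 4.65 and 8.68 in mouse 3, 4.54 and 6.27 in mouse 5, and between 4.59 and 4.99 in mouse 1 and mouse 4. Krt13, its partner, was at 11.93 and 11.53 in mouse 2, 3.44 and 3.38 in mouse 1, and higher in carcinoma b of mouse 3 (3.78 and 9.92), mouse 4 (3.56 and 5.91) and mouse 5 (3.14 and 8.30). Krt4 and Krt13 were thus both highest in the 2 carcinomas of mouse 2, and only Krt13 passed the class test (4.55, SE 0.63, limma adjusted p = 0.00774, and 0.0151 without mouse 3 and mouse 4).

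Adipocyte genes had 4 of 7 members with an unadjusted p under 0.05 (3 without mouse 3 and mouse 4), with Plin4, a lipid droplet protein, at 5.86 and 5.70 in mouse 1 and between 3.85 and 4.69 elsewhere. Neutrophil genes had 8 of 13, but 1 without mouse 3 and mouse 4, and macrophage genes had 1 of 15, but 11 without them. The shares over all genes were 10.2% with all 5 mice and 20.5% without mouse 3 and mouse 4. Csf1r, the receptor of macrophage growth factor, was at 11.91 and 12.24 in mouse 1, 10.11 and 10.15 in mouse 2, and 12.39 and 11.92 in mouse 5, while mouse 3 (12.07 and 9.81) and mouse 4 (12.70 and 10.92) were split. Its 2 other probe sets differed by 1.04 and 0.77 in mouse 1, -0.70 and -0.57 in mouse 5, -2.17 and -2.71 in mouse 3, and -2.58 and -2.19 in mouse 4. No member of the epithelial adhesion, hair follicle, mitosis or interferon lists had an unadjusted p under 0.05 with all 5 mice. Without mouse 3 and mouse 4 the numbers were 4 of 26, 0 of 14, 11 of 25 and 7 of 23. Of the 768 germline-linked genes, 16.0% had an unadjusted p under 0.05 with all mice and 25.4% without mouse 3 and mouse 4, but the study had chosen them on these tumours.

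**Figure D4:**
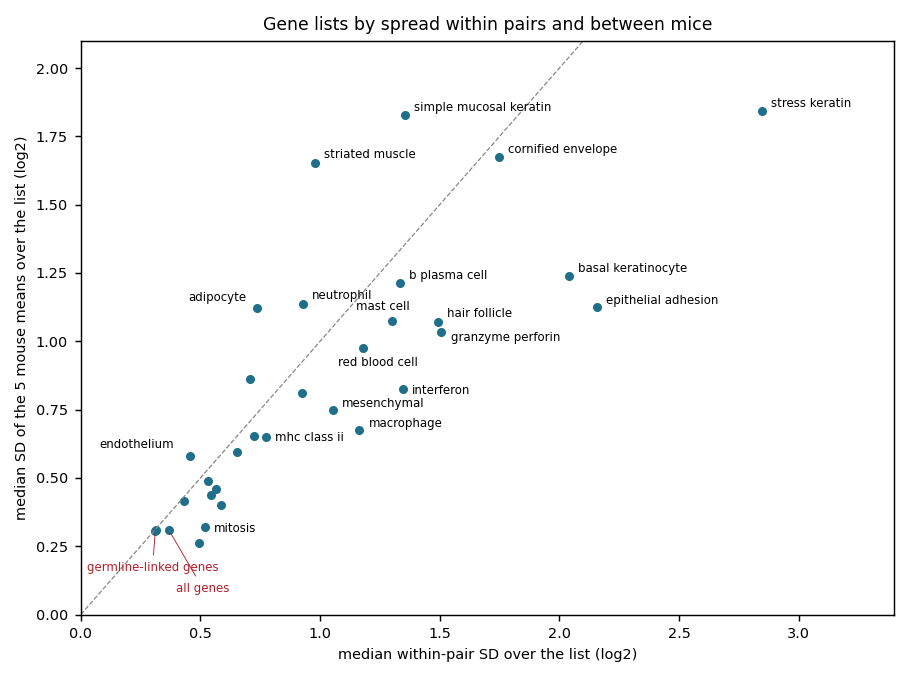
Each point is a gene list, placed by the median over its genes of the within-pair SD (horizontal, log2) and of the SD of the 5 mouse means (vertical, log2); the dashed line marks equal values and the red labels mark all genes and the germline-linked genes. Stress keratin genes, at 2.85 and 1.84, lie farthest to the right, and striated muscle, at 0.98 and 1.65, lies above the line.

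Some differences followed chromosomes rather than gene lists. Over consecutive blocks of 50 genes, carcinoma b of mouse 2 was higher in all 15 blocks of chromosome 1, with a median difference of 0.30 and 81.7% of its genes higher, against 53.7% of the other genes. In mouse 5 all 20 blocks of chromosome 7 were higher in carcinoma b, with a median of 0.30 and 70.7% of genes higher. In mouse 3 all 12 blocks of chromosome 10 (median 0.36), all 13 of chromosome 8 (0.29) and all 7 of the X chromosome (0.28) were higher in carcinoma b, and 14 of 15 blocks of chromosome 4 were lower (-0.22). In mouse 4 all 13 blocks of chromosome 3 (-0.43) and all 9 of chromosome 19 (-0.36) were lower in carcinoma b. Smaller shifts were found in mouse 1, with all 13 blocks of chromosome 6 (-0.21), 19 of 20 of chromosome 7 (-0.16) and all 9 of chromosome 19 (-0.12) lower in carcinoma b. All 7 blocks of the X chromosome were lower in carcinoma b of mouse 5 (-0.20). Gains of chromosome 7, which carries Hras1, are known in tumours of this model, and DNA copy number was not analysed here.

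One block on chromosome 3 stood out from its neighbours in mouse 2, mouse 3 and mouse 5. It ran from S100a9 to Psmd4 and 23 of its 50 genes belong to the cornified envelope and stress keratin lists, since most envelope genes are clustered in the genome. Its median was -1.001 in mouse 2, 0.83 in mouse 3 and 1.43 in mouse 5, and 0.34 in mouse 1. In mouse 4 it was -0.29, within the range of the other blocks of that chromosome.

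**Figure D5:**
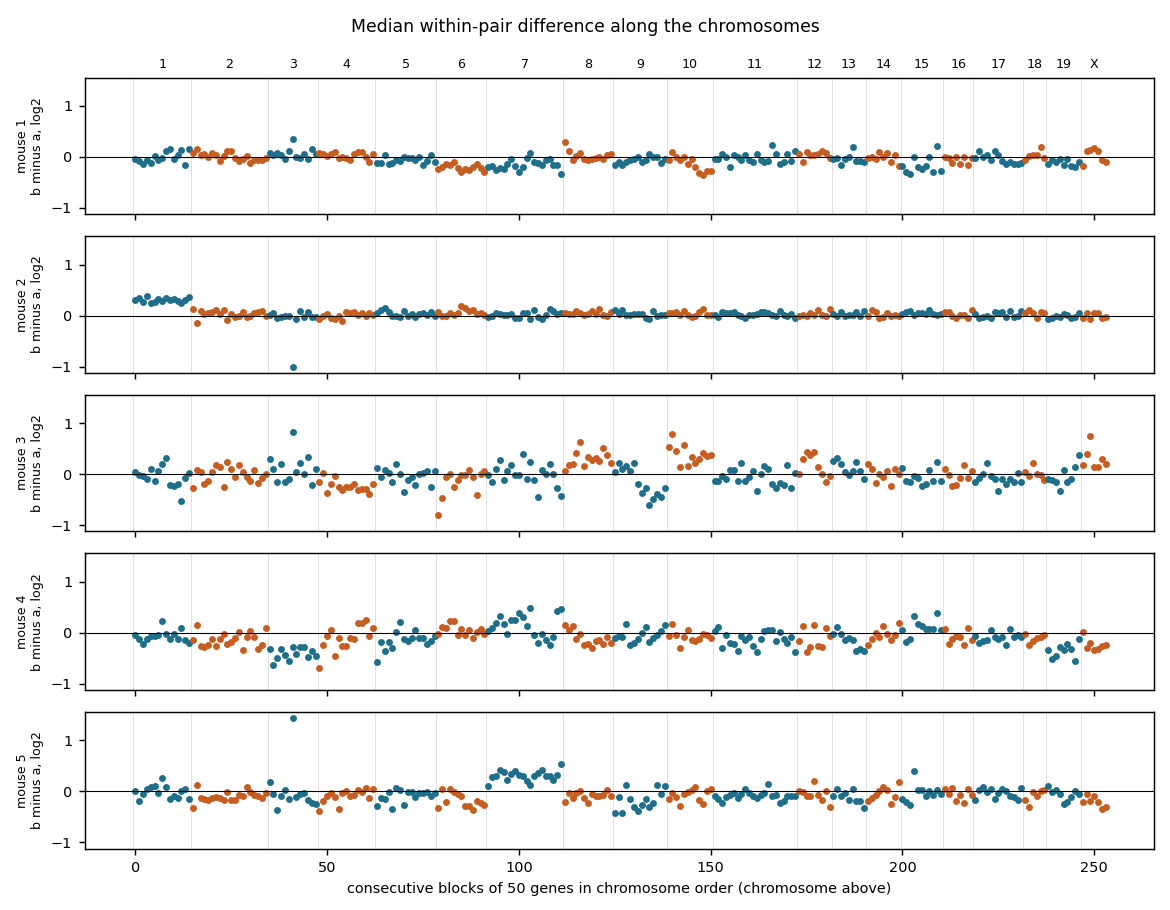
Median within-pair log2 difference (carcinoma b minus carcinoma a) of consecutive blocks of 50 genes in chromosome order, 1 panel per mouse, with the chromosome above and the colour alternating between chromosomes. Chromosome 1 is raised as a whole in mouse 2 (0.30) and chromosome 7 in mouse 5 (0.30), and the single block far from its neighbours on chromosome 3 holds the envelope genes (1.43 in mouse 5 and -1.001 in mouse 2).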

How the data were processed

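Each deposited value is the log2 level of a probe set, computed by the authors with RMA from Affymetrix mouse arrays of the 3′ expression design (biotin-labelled cRNA of Trizol-extracted total RNA, 1 array per carcinoma). RMA corrects background, quantile-normalises the arrays together and summarises probes, so a shift of most genes on 1 array would be removed. The RMA version is not given in the sources used here. Of 45101 probe sets, 34958 had a single symbol in the platform annotation, and symbols were updated through RefSeq (GRCm38.p6). For each gene the probe set of highest mean over 60 arrays was kept. Only genes that exceeded the median of their array in 8 or more arrays were tested.

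Distances were compared by an exact permutation test over all pairings of the 10 arrays. limma 3.58.1 in R 4.3.3 fitted mouse as a factor (F-test) and tumor_class with mouse as a block, with Benjamini-Hochberg adjustment over all genes, and was tested on simulated data. P-values measure the spread between arrays of these 5 mice. The within-pair SD is the square root of the mean squared difference over 2. The labels do not say that the tumour numbers in the titles pair tumours across mice. Differences of carcinoma b minus a correlated between mice from -0.199 to 0.539. The highest values were those of mouse 3 with mouse 5 (0.539), mouse 4 with mouse 5 (0.535) and mouse 3 with mouse 4 (0.441). In these mice the order of the numbers is also that of the class label, so number and class cannot be told apart there. Named genes are those of largest within-pair SD, the largest differences of each mouse, the smallest p of each test, and up to 7 members of each of 33 lists. The single block of chromosome 3, Cdkn2a with its neighbours, and the list members Cdh1, Ivl, Lor, Top2a, Vim and Zeb1 were picked after their values were seen. The members and lists were chosen with earlier results of these data known. Alternatives were no filter, a stricter filter, averaged or single probe sets, quantile normalisation, autosomal genes, other fold limits, leaving out mice or arrays, no mouse block and all 60 arrays. Tables and figures used pandas 2.3.3, numpy 2.4.6 and matplotlib 3.10.9 under Python 3.11.15.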

Additional observations from a re-analysis of the deposited data

Results flagged for a closer look

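In mouse 3, mouse 4 and mouse 5, which share the contrast of class 2 against class 1, 4 cell type lists had medians far apart. Each was picked out because its median was higher in the class 2 tumour of 1 mouse and lower in that of another, and the difference between mice was not tested. For granzymes and perforin the highest median lay 4.99 above the lowest, from -4.08 in mouse 3 and -1.21 in mouse 5 to 0.91 in mouse 4. For B and plasma cell genes the gap was 2.56, from -0.55 in mouse 3 to 2.01 in mouse 4. For MHC class II genes, which present antigen, it was 2.33, from -1.71 in mouse 3 to 0.62 in mouse 4. For fibroblast matrix genes it was 2.29, from -1.57 in mouse 5 to 0.72 in mouse 4. In all 4 lists mouse 4 was the mouse of highest median, and its 2 arrays are 1 of the pairs that were not alike in the germline-linked genes.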

How the results depend on the processing

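The number of genes past the F-test of mouse (0) became 4 with only the 3 mice labelled SCC and 2 without mouse 3 and mouse 4, ranged from 0 to 4 when 1 mouse was left out (4 without mouse 3) and from 0 to 24 when 1 array was left out (24, mostly hair keratin genes, without carcinoma a of mouse 1, 3 and 1 without carcinomas a and b of mouse 3). With the tumour number as a replicate block it was 0, with 730 genes at an unadjusted p under 0.05. The count for tumor_class (1128) ranged from 594 to 934 when 1 mouse was left out: 594 without mouse 2 (406 higher and 188 lower) and 713 without mouse 5. It was 458 without mouse 3 and mouse 4, 348 with only the 3 mice of both classes, 1773 with no mouse block, and 6439 (2732 higher and 3707 lower) over all 60 arrays with mouse as a random block. The exact one-sided permutation p of the distance ranged from 0.0762 to 0.752 when 1 mouse was left out, with the direction reversed without mouse 2 (0.752). At 1.5-fold the share of genes apart within a pair was 23.1%, 8.93%, 46.3%, 40.97% and 35.4% in mice 1 to 5, and at 4-fold 1.58%, 0.461%, 8.82%, 5.32% and 5.90%. The setting without mouse 3 and mouse 4 and a tumor_class covariate in the F-test (0 genes) were added after seeing the data. The causes were not tested. Other planned settings kept each of these counts within 1.5 times and each direction. Signal near the array median and 1 array per tumour limit what single pairs show.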

Other observations

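A run of 3 neighbours on chromosome 4, next to each other among the genes tested, was chosen after their values were seen. All 3 differed within the pairs of mouse 3 and mouse 5, and some of them within those of mouse 1 and mouse 4. Mtap, an enzyme of methionine salvage, was at 5.44 and 9.02 in carcinomas a and b of mouse 3, 11.20 and 5.77 in mouse 4, and 5.45 and 8.52 in mouse 5. On the 50 arrays of mice with 1 carcinoma its median was 9.59 and 1 array lay under 6. Cdkn2a, which encodes the p16 and p19Arf tumour suppressors, was at 3.15 and 10.02 in mouse 3, 3.60 and 3.32 in mouse 4, and 4.11 and 6.14 in mouse 5, with a median of 6.21 and 23 arrays under 6 on the others. Cdkn2b, a related inhibitor of the cell cycle, was at 3.82 and 8.76, 4.46 and 5.08, and 3.80 and 7.45, with a median of 8.00 and 8 arrays under 6 on the others. In carcinoma a of mouse 3 and of mouse 5 all 3 genes lay below carcinoma b of the same mouse. In mouse 4 Mtap alone was over 2-fold apart. In mouse 1 Cdkn2a was at 3.06 and 4.40 and Cdkn2b at 7.62 and 5.36, in opposite directions, with Mtap at 8.89 and 8.71.

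Of the genes the study discussed, Gprc5d, an orphan receptor linked to hair keratins, was at 4.51 and 7.34 in mouse 1 and between 4.26 and 4.89 on the other 8 arrays, high in the same tumour as Krt25. Tslp, an epithelial cytokine, was at 10.70 and 8.89 in mouse 5 and at 4.21 and 4.24 in mouse 2. Gzme, a granzyme, was at 8.48 and 9.74 in mouse 4 and between 2.79 and 7.16 elsewhere. Il18, a cytokine of the inflammasome, was at 7.89 and 5.80 in mouse 5 and at 8.87 and 9.67 in mouse 1.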
